A study of Mus musculus with 51 samples.

Results

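The early effect of the mTOR inhibitor RAD001 (everolimus) was measured in the ventral prostate of AKT1 transgenic mice after 12 h of treatment. The comparison holds 9 of the 51 Affymetrix arrays of the study, chosen by their titles. RAD001 had been given to 5 AKT1 transgenic mice (FVB-AKT1, FVB strain) and placebo to 4, and the glands were taken at 12 h. All mice were 8 to 10 weeks old and had a standard diet, so that both groups carried the transgene and differed in treatment. Side by side with them stand 4 placebo arrays of wild type FVB mice at 12 h, and the RAD001 and placebo arrays of transgenic glands at 48 h (4 and 5) and 15 d (6 and 7). The sources used here do not give the promoter that drives the transgene, the dose and route of RAD001 or the hour of the day at collection. The stated aim of the study was to tell markers of drug exposure apart from markers of response.

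AKT is a kinase of the insulin and growth factor pathway, and it activates mTOR complex 1. That complex drives cap-dependent translation and ribosome production, and through the transcription factors HIF1, SREBP and ATF4 it also raises transcripts of glycolysis, sterol and lipid synthesis, the pentose phosphate pathway and serine synthesis. AKT itself restrains the FOXO transcription factors. RAD001 binds FKBP12 and together with it inhibits mTOR complex 1. The ventral lobe of the mouse prostate consists of glands of secretory luminal epithelium, with a thin basal layer and a sheath of smooth muscle and fibroblasts.

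Each array gave 1 linear intensity per probe set. Array medians lay from 98.7 to 107.3 in the RAD001 arrays and from 96.8 to 101.7 in the placebo arrays. The probasin gene Pbsn, a marker of prostate secretory epithelium, had intensities of 5720.1, 6532, 5576, 1559.8 and 4013 in the RAD001 arrays, against 4055, 1879.7, 5882 and 4012 in the placebo arrays. The luminal keratin gene Krt18 had 2602 to 2839 under RAD001 and 2589.5 to 3147 under placebo, while another, Krt8, was called lower. The prostate secretion marker was thus bright in all 9 arrays, although RAD001 replicate 4 and placebo replicate 2 had less of it than the others. RAD001 replicate 4 stood apart from the other 8 arrays on the second principal component (18.9% of the variance), and on the first (23.5%) it lay on the side of the placebo arrays, while placebo replicate 3 lay on the side of the RAD001 arrays. No array was left out for this.

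Changes are log2 differences, RAD001 minus placebo, with their standard error (SE) from a limma fit across 42 arrays. A feature is a gene, read by its brightest probe set, or a probe set without a single gene symbol. It was called at an adjusted p under 0.05. The labels describe the arrays of a group as biological replicates, and p-values measure only the spread between them. In bulk tissue, fewer cells of a type and less RNA per cell cannot be told apart.

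After 12 h of RAD001, genes of glycolysis, of the pentose phosphate pathway, of tubulins and the replication gene Pcna were among those that fell, and the cholesterol efflux gene Abca1, 3 genes of the circadian clock and the splicing kinase gene Clk1 were among those that rose. Of 9627 features tested 142 were called (1.48%), 62 higher (0.644%) and 80 lower (0.831%). Of these 13 changed by at least 2-fold, 8 upwards and 5 downwards. The median change was 0.59 among features that rose, -0.55 among those that fell and 0.02 over all features tested. At an unadjusted p under 0.05 stood 1188 features. The split between rises and falls depended on the scaling of the arrays and on their weighting in the fit. With each array scaled to a common median, 34 features were higher and 124 lower, and with array weights 513 were higher and 344 lower.

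**Figure D1:**
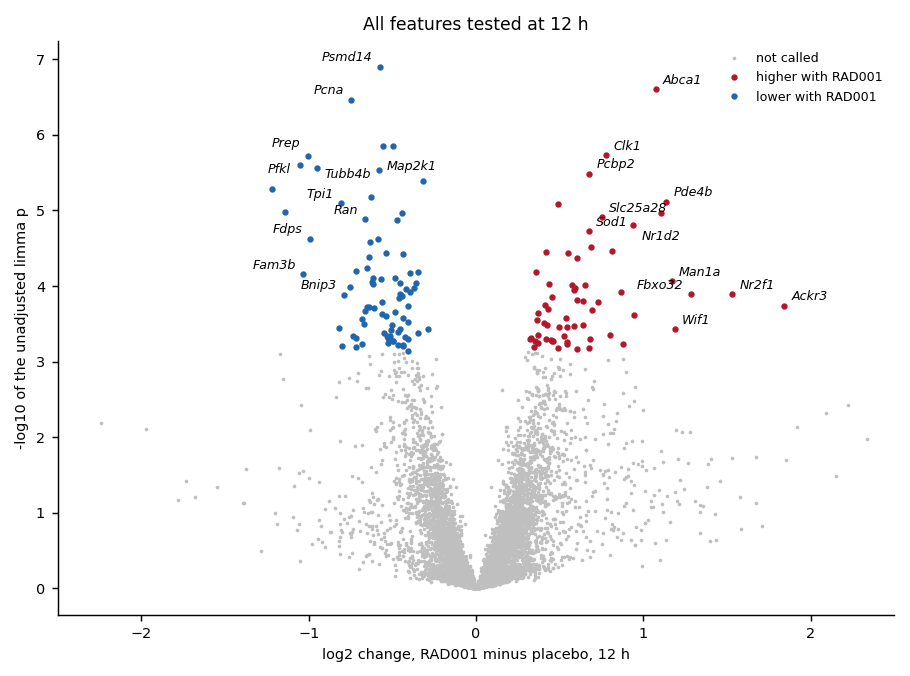
Every feature tested at 12 h is plotted by its log2 change, RAD001 minus placebo (horizontal), and by -log10 of its unadjusted limma p (vertical). Red points are the 62 features called higher and blue points the 80 called lower, with Psmd14 and Abca1 nearest the top, while the widest rise is that of Ackr3 at 1.84.

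In 711 of the 9627 features (7.39%) no RAD001 array overlapped a placebo array, 332 higher (3.45%) and 379 lower (3.94%). Among the 142 called features 122 were of this kind, 50 higher and 72 lower. Of the 62 rises, placebo replicate 1 was the lowest placebo array in 34 and RAD001 replicate 4 the lowest RAD001 array in 25. Of the 80 falls, placebo replicate 2 was the highest placebo array in 30. The number of calls moved with single arrays. Leaving out RAD001 replicate 2 gave 66 calls, replicate 3 gave 84 and replicate 5 gave 71. Leaving out placebo replicate 1 gave 43 calls, and leaving out replicate 2 of that group gave 31.

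Whichever of the 9 arrays was left out, 23 features were called (6 higher and 17 lower), and of those 12 had a gene symbol and changed by at least 0.5. Of the genes described later as called, Nop10, Paip2b and Mrps14 were also called in each of these fits, and the other calls ended when some array was left out. Of 121 calls with a gene symbol, 69 ended without RAD001 replicate 5 and 68 without RAD001 replicate 2, against 99 without placebo replicate 2 and 90 without placebo replicate 1. Of the 12 genes, Abca1 encodes the membrane pump that loads cholesterol onto apolipoprotein A-I. Its intensities were 466, 442, 431, 389 and 341 in the RAD001 arrays, against 165, 176, 246 and 202 in the placebo arrays. Every RAD001 array lay above every placebo array, and Abca1 rose by 1.07 ± 0.17, or 2.11-fold (adjusted p = 0.0011). When probe sets were tested apart, 1 of 2 of Abca1 was called (0.40 to 1.075). Pde4b, which encodes a phosphodiesterase that breaks down cyclic AMP, had 98.2, 115, 96.4, 76.6 and 86.5 in the RAD001 arrays, against 34.4, 40.7, 59.4 and 39.8 in the placebo arrays. It was dim in both groups but again without overlap, and it rose by 1.14 ± 0.22 (adjusted p = 0.00462). With intensities under 64 raised to 64 the change of Pde4b was 0.55 and not called (adjusted p = 0.192).

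Clk1, the gene of a kinase that phosphorylates SR splicing factors, had intensities of 369, 406, 417, 297 and 388 in the RAD001 arrays, against 187, 174, 294 and 235 in the placebo arrays. It rose by 0.78 ± 0.14, and placebo replicate 3 lay just below the lowest RAD001 array, replicate 4. Slc25a28 encodes mitoferrin 2, an iron importer of mitochondria, and had 401, 379, 430.2, 386 and 350.2 in the RAD001 arrays, against 213, 224, 207 and 285 in the placebo arrays. The groups did not overlap, and it rose by 0.75 ± 0.15. The poly(C)-binding protein gene Pcbp2 had 1148, 1347, 1220.2, 1345 and 1459 in the RAD001 arrays, against 731, 853, 859.6 and 815 in the placebo arrays. The groups did not overlap and differed by 0.68 ± 0.12.

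The 7 falls of this kind began with Pfkl, the liver-type subunit of phosphofructokinase, which had 545, 614, 557, 713 and 363 in the RAD001 arrays, against 969.8, 1238, 1105 and 1237 in the placebo arrays. All RAD001 arrays were below all placebo arrays, with replicate 5 lowest, and Pfkl fell by 1.05 ± 0.19 (adjusted p = 0.00285). Prep, a cytosolic peptidase that cleaves after proline, had 90, 73.5, 59.7, 54.9 and 53.7 in the RAD001 arrays, against 124, 147, 131 and 123 in the placebo arrays. The groups did not overlap, and Prep fell by 1.01 ± 0.18. The tubulin gene Tubb4b had 638, 642, 657, 725 and 831 in the RAD001 arrays, against 1292, 1567, 1304 and 1232 in the placebo arrays. It fell by 0.95 ± 0.17, and the groups did not overlap.

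Pcna, the sliding clamp of replicative DNA polymerases, had 236, 213, 216.3, 229 and 261 in the RAD001 arrays, against 441, 432, 329 and 358 in the placebo arrays. The RAD001 arrays lay close together below the placebo arrays, and Pcna fell by 0.75 ± 0.12 (adjusted p = 0.0011). Psmd14, the deubiquitinase subunit of the proteasome lid, had 343, 355, 376, 380.4 and 299 in the RAD001 arrays, against 549, 528, 499 and 509.8 in the placebo arrays. It had the smallest p of all features, with -0.58 ± 0.09 and groups that did not overlap. Map2k1, which encodes the kinase MEK1, fell by 0.58 ± 0.10 (intensities of 256 to 398 under RAD001 and 434 to 560.2 under placebo). Ran, the small GTPase of nuclear transport, fell by 0.66 ± 0.13 (674 to 902 under RAD001 and 1119.6 to 1345 under placebo).

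**Figure D2:**
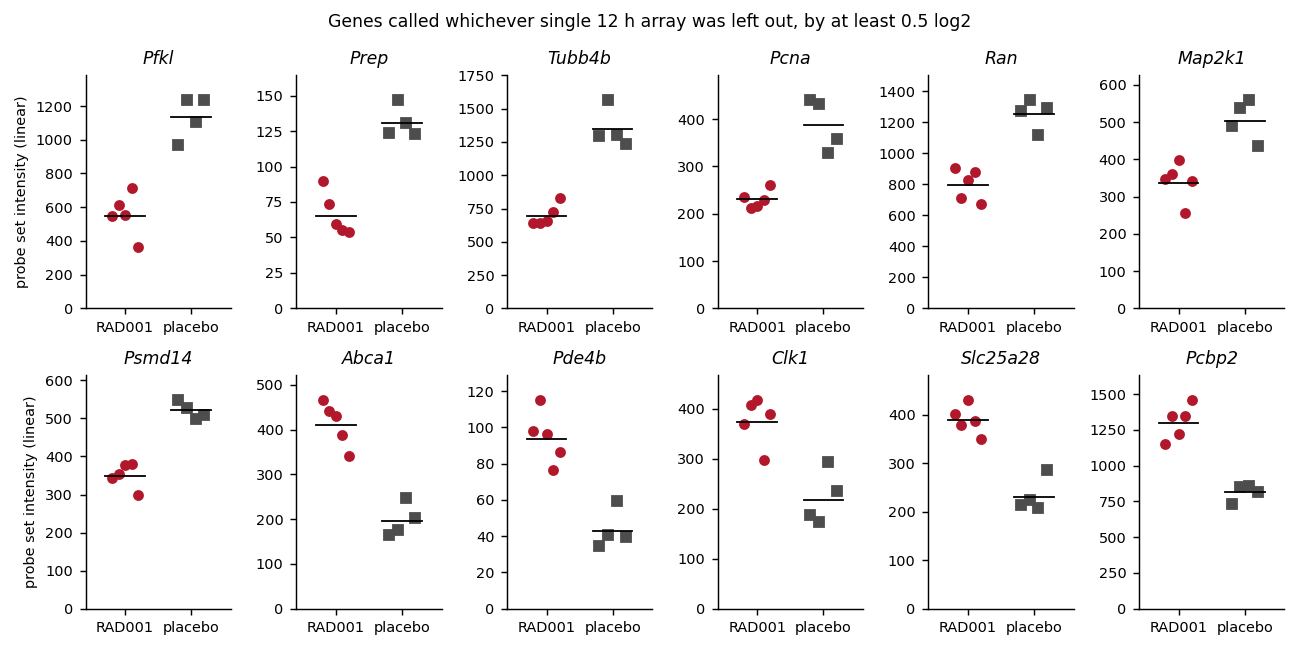
Linear intensity in each 12 h array for the 12 genes that were called whichever single array was left out and changed by at least 0.5 log2. Red circles are the 5 RAD001 arrays, grey squares the 4 placebo arrays and black lines the geometric means, and in none of the 12 panels do the groups overlap.

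Glycolysis genes were lower at several steps. Of 12 glycolysis genes tested 5 fell and 0 rose, with a median of -0.58 against 0.02 over all features, and 11 of 12 had negative values. Over all features 0.831% were called lower and 0.644% higher, and the counts of each list below stand beside these shares. Beside Pfkl, the triosephosphate isomerase gene Tpi1 had intensities of 1120.4, 1188, 1321, 1765 and 789 in the RAD001 arrays, against 2054, 2682, 1829 and 1911 in the placebo arrays. It fell by 0.81 ± 0.15, and the closest arrays were RAD001 replicate 4 and placebo replicate 3. The hexokinase gene Hk2, whose enzyme takes the first step of glycolysis, had 337, 344, 443, 377 and 299 in the RAD001 arrays, against 487, 635, 636 and 549 in the placebo arrays. It fell by 0.68 ± 0.17 without overlap, and Hk1 fell by 0.51 ± 0.13 with overlap. The aldolase gene Aldoa fell by 0.65 ± 0.14. Its values were 2485, 2402, 2261, 3345 and 1562 in the RAD001 arrays, against 3641, 4319, 3214 and 3621 in the placebo arrays, so that RAD001 replicate 4 lay above placebo replicate 3. All 3 probe sets of Tpi1 and 3 of 4 of Aldoa were called when probe sets were tested apart. Pgk1 (-0.42 ± 0.15), the phosphoglycerate kinase gene, and Aldoc (-0.42 ± 0.16) did not pass. Gapdh and Eno1 were not among the features tested.

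The list score, the mean log2 deviation of the members from their mean over the table, ran from -0.29 to 0.55 in the RAD001 arrays and from 0.56 to 0.84 in the placebo arrays. In all 5 RAD001 arrays it was below the placebo mean, and replicate 4 came closest to placebo. Summed intensities of the members were 11560 to 24270 under RAD001, 23090 to 28570 under placebo and 9311 to 11500 in wild type placebo arrays of 12 h.

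The SE is estimated over all 42 arrays, and in 15 d placebo replicate 9 the probe sets of Pgam1, Slc2a1 and Higd1a lay at the floor of 16, the value to which lower intensities were raised. Without the 15 d arrays that hold over 500 values at exactly 0 (placebo replicates 8 and 9), 232 features were called (2.41%). The glycolysis list then had 6 lower members, the added one being Pgam1 (-0.65 ± 0.14, adjusted p = 0.00933), the phosphoglycerate mutase gene. Slc2a1, the glucose transporter gene, was then called as well (-0.61 ± 0.11, adjusted p = 0.00177). The intensities of Slc2a1 at 12 h were 293, 251, 315, 312 and 267 in the RAD001 arrays, against 439.8, 469.7, 478 and 375 in the placebo arrays, and all RAD001 arrays lay below all placebo arrays. Higd1a, a mitochondrial hypoxia-induced gene, was also called in that fit (-0.80 ± 0.15, adjusted p = 0.00222).

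The pentose phosphate pathway branches off glycolysis and yields NADPH and ribose. Of 8 genes in that list 3 fell (0.831% of all features did) and 0 rose, with a median of -0.39. Pgd, the 6-phosphogluconate dehydrogenase gene of the oxidative branch, had 534, 498, 576, 541 and 356 in the RAD001 arrays, against 819, 854, 787 and 793 in the placebo arrays. RAD001 replicate 5 was lowest, no arrays overlapped, and Pgd fell by 0.72 ± 0.16. The transketolase gene Tkt had 850, 828, 933, 1082 and 693 in the RAD001 arrays, against 1452, 1463, 1107 and 1354 in the placebo arrays, and it fell by 0.62 ± 0.14. The epimerase gene Rpe fell by 0.53 ± 0.14 (143 to 222 under RAD001 and 241 to 288 under placebo), although its other probe set gave -0.09. Taldo1, the transaldolase gene, was lower without overlap but did not pass (-0.34 ± 0.12). The list score lay between -0.38 and -0.04 in RAD001 arrays and between 0.08 and 0.29 in placebo arrays, with no overlap.

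Hypoxia-responsive genes outside glycolysis had a median of -0.22, with 15 of 17 negative, and 1 was called. Bnip3, a mitophagy receptor gene, had 839, 753, 906, 1484 and 544 in the RAD001 arrays, against 1188, 1948, 1452 and 1440.3 in the placebo arrays. RAD001 replicate 4 lay within the placebo range, and Bnip3 fell by 0.79 ± 0.18 (adjusted p = 0.0196). Ddit4, whose product restrains mTOR complex 1 under hypoxia and other stress, was not called at -1.19 ± 0.79, yet its intensities were 544, 579.9, 541, 535 and 392 in the RAD001 arrays, against 1107, 1311, 1094 and 1194 in the placebo arrays. These groups did not overlap, although the SE over all 42 arrays was wide. Vegfa was at -0.04 ± 0.13, and 0 of 17 members rose.

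The windows from 250 bases before to 50 after the start site of Hk2 (chr6:82774405-82774704, minus strand) and Bnip3 (chr7:138909457-138909756, minus strand) are shown because these called members of the glycolysis and hypoxia lists hold the core of the HIF1 response element, ACGTG. They are written 5′ to 3′ as in RefSeq (GRCm38.p6), with ACGTG or its reverse complement CACGT in capitals.
Hk2: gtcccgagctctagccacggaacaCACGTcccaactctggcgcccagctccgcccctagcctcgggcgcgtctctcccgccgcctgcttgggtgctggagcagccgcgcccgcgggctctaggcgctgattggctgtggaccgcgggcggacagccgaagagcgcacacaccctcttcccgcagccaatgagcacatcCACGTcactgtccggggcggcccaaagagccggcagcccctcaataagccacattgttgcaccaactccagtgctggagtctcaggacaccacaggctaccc
Bnip3: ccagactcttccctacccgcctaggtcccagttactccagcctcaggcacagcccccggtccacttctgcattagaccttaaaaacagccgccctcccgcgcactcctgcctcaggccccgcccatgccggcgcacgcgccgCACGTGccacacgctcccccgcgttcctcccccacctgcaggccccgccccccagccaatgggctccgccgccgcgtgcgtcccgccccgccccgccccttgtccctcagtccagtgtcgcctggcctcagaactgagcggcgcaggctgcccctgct
The core occurs in 19.6% of 32851 such windows in the table, searched on both strands. In Bnip3 the capitals form a single CACGTG, which reads as the core on both strands. Among the other called glycolysis genes, 2 of 3 windows of Aldoa and 1 of 2 of Hk1 held the core. These 2 windows of Aldoa overlap and hold the same site. The windows of Pfkl and Tpi1 did not hold the core. A match is a description of the letters and does not show binding.

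In cholesterol synthesis the median of 17 genes was -0.47, with 15 negative, 1 called lower and 0 higher. That gene, Fdps, makes farnesyl diphosphate, and it had 221, 204, 206, 313 and 182 in the RAD001 arrays, against 433, 523, 343 and 485 in the placebo arrays. It fell by 0.995 ± 0.20, and the groups did not overlap. Cyp51, the lanosterol demethylase gene, was at -1.17 ± 0.32 and narrowly missed the threshold (adjusted p = 0.0512), with 40.1, 30, 52.2, 126 and 29.9 in the RAD001 arrays, against 87.9, 131, 79.2 and 142 in the placebo arrays. RAD001 replicate 4 lay among the placebo arrays there. Msmo1 (-1.18 ± 0.50) and Sqle (-1.06 ± 0.47), which act in sterol demethylation and squalene epoxidation, did not pass either. Without the 15 d arrays with many zeros 4 members of the list were called lower, adding Msmo1 (adjusted p = 0.000746), Sqle (0.0103) and Cyp51 (0.0226). Tm7sf2, a sterol reductase gene, was at 0.36 ± 0.15.

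In the list of sterol sensing, uptake and efflux, 2 of 9 genes rose (0.644% of all features did) and 0 fell, with a median of 0.11. Beside Abca1, the HDL receptor gene Scarb1 had 169.8, 171, 177, 187 and 190.3 in the RAD001 arrays, against 76.5, 142, 138 and 151 in the placebo arrays. It rose by 0.54 ± 0.14, with placebo replicate 1 far below the other placebo arrays (adjusted p = 0.32 without placebo replicate 1 and 0.0736 with arrays scaled to a common median). With probe sets tested apart, 1 of 2 of Scarb1 was called (0.19 to 0.54). Srebf1, the gene of a lipogenic SREBP factor, was at -0.37 ± 0.14 and Srebf2, which drives sterol genes, at -0.20 ± 0.14. Neither passed. Gramd1a, outside the list, encodes a protein that moves cholesterol from the plasma membrane to the ER and rose by 0.80 ± 0.21 (87 to 97.1 under RAD001 and 39.2 to 68.8 under placebo). Gramd1a was at 0.47 and not called with a floor of 64 (adjusted p = 0.191), nor was it called under common median scaling (adjusted p = 0.0544). In fatty acid synthesis 1 of 10 genes fell, Acss2, which makes acetyl-CoA from acetate. It fell by 0.54 ± 0.11 (102 to 138 under RAD001 and 148 to 183 under placebo), and Acly, which makes acetyl-CoA from citrate, was at -0.35 ± 0.10 (adjusted p = 0.0669).

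**Figure D3:**
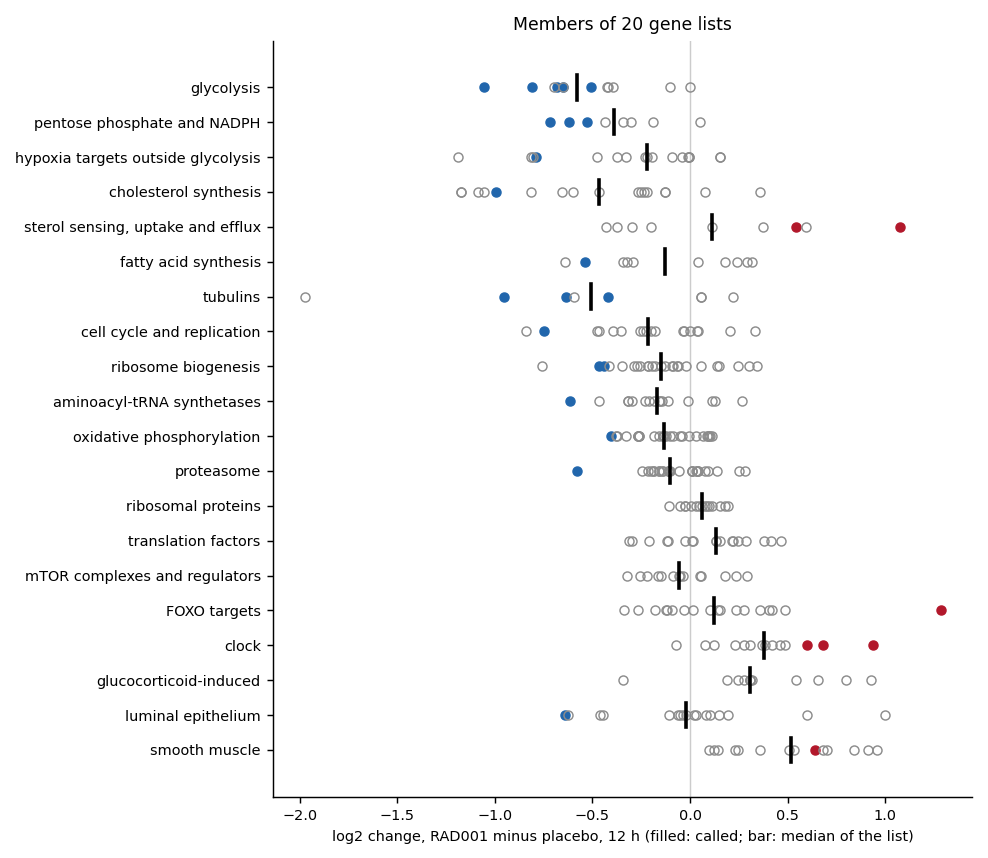
Each circle is a tested member of 1 of 20 gene lists at its log2 change, RAD001 minus placebo at 12 h, with called members filled in blue (lower) or red (higher) and the list median as a black bar. The medians run from -0.58 for glycolysis to 0.52 for smooth muscle, and most members of every list are open circles.

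Few genes of the protein synthesis machinery were called. Of 15 ribosomal protein genes 0 were called, with a median of 0.06 and values from -0.11 to 0.19. Of 18 translation factors 0 were called (median 0.13). Without the 15 d arrays with many zeros Eef2 (0.38 ± 0.08, adjusted p = 0.0117) and Eif4b (0.46 ± 0.11, adjusted p = 0.0185), an elongation factor and an initiation factor, were called higher. Eif3f, a subunit of initiation factor 3 outside the list, rose by 0.43 ± 0.10 (1145 to 1374 under RAD001 and 833 to 1092 under placebo, adjusted p = 0.0597 under common median scaling), and Paip2b, a repressor of poly(A)-binding protein, rose by 0.49 ± 0.09 (675 to 899.6 under RAD001 and 545 to 602 under placebo). Eif4ebp1, the translation repressor that mTOR phosphorylates, was at 0.29 ± 0.16 and not called. The array measures RNA, so phosphorylation was not measured.

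Ribosome biogenesis had 2 of 25 members lower and 0 higher, with a median of -0.15. Nop10 and Nhp2 encode proteins of the same particle, the H/ACA ribonucleoprotein that modifies ribosomal RNA. Nop10 had 1319.5, 1395, 1465, 1359 and 1452 in the RAD001 arrays, against 1870.5, 1883, 1845 and 1995 in the placebo arrays, narrow groups that did not overlap, and fell by 0.44 ± 0.09. Nhp2 fell by 0.47 ± 0.12 (317 to 436 under RAD001 and 449 to 544 under placebo), with an adjusted p of 0.0550 under quantile scaling. Nop56, of the C/D particle, was at -0.76 ± 0.22 and passed without the 15 d arrays with many zeros (adjusted p = 0.0392). Of 16 aminoacyl-tRNA synthetases 1 fell, Iars, by 0.62 ± 0.14, and the list median was -0.17. Myc, a transcription factor that drives ribosome production, rose by 0.42 ± 0.11 (224 to 271 under RAD001 and 171 to 201 under placebo), and was not called with arrays scaled to a common median (adjusted p = 0.117).

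Serine synthesis and other ATF4 targets had 1 of 17 members lower, with a median of -0.03. That was Psat1, the phosphoserine aminotransferase gene, with 47.7, 59.2, 52.2, 74.1 and 37.6 in the RAD001 arrays, against 83.6, 95.2, 81.3 and 110.5 in the placebo arrays. It fell by 0.80 ± 0.21, and the highest RAD001 array, replicate 4, lay below the lowest placebo array. With a floor of 64 Psat1 was at -0.48 and not called (adjusted p = 0.16). Asns (-0.12 ± 0.13) and Trib3 (-0.17 ± 0.11), both ATF4 targets, were not called. Among 9 amino acid transporters 1 rose, the glycine transporter gene Slc6a9 (0.64 ± 0.16, 416 to 547 under RAD001 and 221 to 395 under placebo). Ctns, the lysosomal cystine exporter gene, rose by 0.68 ± 0.18 (403 to 545 under RAD001 and 253 to 341 under placebo), with an adjusted p of 0.0685 under common median scaling.

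No transcript of the lists of the pathway itself was called in the fit of 42 arrays. In the list of mTOR complexes and regulators 0 of 14 and in that of PI3K and AKT 0 of 14 passed, with medians of -0.05 and 0.11. Akt1 was at -0.10 ± 0.13 (722 to 845 under RAD001 and 781 to 926 under placebo) and Mtor at 0.18 ± 0.44 (199.9 to 281 under RAD001 and 196 to 243 under placebo), and the sources used here do not say whether the Akt1 probe set detects transgene RNA. Without the 15 d arrays with many zeros Grb10, an adaptor of the insulin receptor in the PI3K and AKT list, was called lower (-0.35 ± 0.10, adjusted p = 0.04996). The S6 kinase gene Rps6kb1 lay under the intensity filter.

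Mitochondrial and proteasome genes had small negative medians. Of 27 listed oxidative phosphorylation genes 1 fell, Ndufs8 by 0.41 ± 0.10, and the median was -0.14. Of the 6 probe sets of Ndufs8, 1 was called when tested apart (-0.41 to -0.12). In 8 members all RAD001 arrays lay below all placebo arrays, against 3.94% of all features. Atp5g1, an ATP synthase subunit gene outside the list, fell by 0.68 ± 0.18 (419 to 441 under RAD001 and 632 to 744 under placebo). Its adjusted p was 0.0596 under quantile scaling. Uqcrb, a complex III subunit gene outside the list, was called lower at -0.29 (adjusted p = 0.0615 under quantile scaling). When probe sets were tested apart, 1 of 2 of Ndufb2 was called (-0.45 to -0.29). Outside the list, Ndufab1, the mitochondrial acyl carrier protein, fell by 0.75 ± 0.17 (191 to 379 under RAD001 and 425 to 540 under placebo), although its other probe set gave 0.01. Sco2, a copper chaperone of cytochrome oxidase, had 53.5, 62.4, 65.1, 66.2 and 54.7 in the RAD001 arrays, against 101, 92.6, 102 and 105 in the placebo arrays and fell by 0.74 ± 0.19 (adjusted p = 0.0641 with a floor of 64). The mitochondrial ribosome genes Mrpl36 (-0.47 ± 0.12), Mrps14 (-0.34 ± 0.08) and Mrps21 (-0.44 ± 0.11) were called lower, although the other probe set of Mrps14 gave 0.09. Genes of the mitochondrial ribosome were not counted as a list. The mitochondrial carrier genes Slc25a28 (0.75 ± 0.15) and Slc25a36 (0.54 ± 0.13) were called higher. Of 27 proteasome genes only Psmd14 was called. Psmd14 stood alone at -0.58, the next lowest member being Psmc4 at -0.25 ± 0.10, and the list median was -0.10. In the citric acid cycle 0 of 15 genes passed.

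Genes of 3 tubulins and of the replication clamp fell as well. Tubulins form the microtubules as pairs of alpha and beta subunits. Of 8 tubulin genes 3 fell (0.831% of all features did) and 0 rose, with a median of -0.51. Beside Tubb4b these were Tuba4a, with 1488, 1344, 1501, 1547 and 1655 in the RAD001 arrays, against 2271, 2714, 1904 and 2532 in the placebo arrays, and Tubb5, with 355, 382, 401, 429.7 and 412 in the RAD001 arrays, against 592, 563, 544 and 429.6 in the placebo arrays. Tuba4a fell by 0.63 ± 0.13 without overlap, and Tubb5 fell by 0.42 ± 0.10, where placebo replicate 4 came down to the RAD001 arrays. The other probe set of Tubb5 gave -0.06, and 1 of 4 probe sets of Tubb4b was called (-0.95 to -0.49). Tubb2a was at -1.97 ± 0.70 and was called without the 15 d arrays with many zeros (adjusted p = 0.0300). The alpha tubulin gene Tuba1a was at 0.05 ± 0.24. Cct6a, a subunit of the chaperonin that folds tubulin and actin, fell by 0.44 ± 0.09 (507 to 643 under RAD001 and 667 to 831 under placebo).

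The promoter window of Tubb4b (chr2:25224653-25224952, minus strand) is shown because it held 5 copies of the CCAAT box, in capitals, and Tubb4b had the widest fall among the tubulins called.
Tubb4b: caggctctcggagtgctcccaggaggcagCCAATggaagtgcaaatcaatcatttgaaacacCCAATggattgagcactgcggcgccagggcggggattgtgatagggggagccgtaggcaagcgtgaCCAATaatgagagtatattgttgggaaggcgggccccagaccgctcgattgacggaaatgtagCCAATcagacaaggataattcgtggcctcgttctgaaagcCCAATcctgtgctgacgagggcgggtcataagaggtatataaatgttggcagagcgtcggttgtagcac
CCAAT on either strand occurs at least once in 37.4% of the 32851 windows. The window of Tubb5 held 2 copies and that of Tuba4a none.

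In the list of cell cycle and replication 1 of 18 genes fell, Pcna, and the median was -0.21. Cdk4, a kinase of the G1 phase, was lower in all RAD001 arrays (259.8 to 303 under RAD001 and 320.4 to 391 under placebo) but did not pass (adjusted p = 0.0669). Rrm2, the small subunit of ribonucleotide reductase, was at -0.84 ± 0.48, and Ccnd1, a G1 cyclin gene, at 0.33 ± 0.13. Mki67, the proliferation marker, was too dim to be tested. Top2b, a topoisomerase gene outside the list, fell by 0.46 ± 0.10.

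Clock genes were higher as a list. The circadian clock is a feedback loop in which the factors CLOCK and BMAL1 drive their own repressors and output genes. Of 14 clock genes 3 rose (0.644% of all features did) and 0 fell, 13 had positive values, and the median was 0.38. Nr1d2, a nuclear receptor that represses Bmal1 (listed as Arntl), had 191, 274, 229.8, 200.3 and 295 in the RAD001 arrays, against 97.4, 99, 161 and 146 in the placebo arrays. Placebo replicates 1 and 2 were the lowest, no arrays overlapped, and Nr1d2 rose by 0.94 ± 0.19 (adjusted p = 0.00631). The repressor gene Cry2 had 182, 191, 187, 297 and 195 in the RAD001 arrays, against 102, 117, 146 and 159 in the placebo arrays, with RAD001 replicate 4 above the rest. It rose by 0.68 ± 0.18. The output factor gene Tef had 423, 502, 515, 549 and 718 in the RAD001 arrays, against 327, 314, 367 and 407 in the placebo arrays and rose by 0.60 ± 0.16. With arrays scaled to a common median Nr1d2 alone was called (adjusted p = 0.0544 for Cry2 and 0.0599 for Tef). Dbp (0.42 ± 0.16), Per1 (0.31 ± 0.37) and Arntl (0.12 ± 0.30) did not pass.

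The clock score lay from 0.06 to 0.33 in the RAD001 arrays, from -0.31 to -0.08 in the placebo arrays, and did not overlap between them. Summed intensities of the clock genes were 2550 to 2956 under RAD001, 1847 to 2227 under placebo and 2555 to 3057 in wild type placebo arrays. Whether the groups were collected at different hours of the day was not tested. Genes induced by glucocorticoids, hormones with a daily rhythm, had a median of 0.31 with 11 of 12 positive and 0 called. Their list score ran from 0.10 to 0.27 in the RAD001 arrays and from -0.29 to -0.10 in the placebo arrays, and summed intensities were 10780 to 12960 under RAD001 and 8451 to 9575 under placebo, neither with overlap. Tsc22d3, one of them, had 572, 521, 678, 301 and 918 in the RAD001 arrays, against 201, 208, 793 and 327 in the placebo arrays, so that the groups overlapped and placebo replicate 3 lay within the range of the RAD001 arrays.

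The first window of Tef (chr15:81802423-81802722, plus strand) is given as the called clock output gene whose windows hold the E-box CACGTG, the site of CLOCK and BMAL1, in capitals.
Tef: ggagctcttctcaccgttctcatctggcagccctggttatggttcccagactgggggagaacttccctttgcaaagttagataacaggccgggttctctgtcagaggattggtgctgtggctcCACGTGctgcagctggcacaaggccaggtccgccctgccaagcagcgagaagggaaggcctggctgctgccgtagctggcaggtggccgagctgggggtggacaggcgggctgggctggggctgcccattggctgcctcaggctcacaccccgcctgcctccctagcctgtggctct
CACGTG occurs in 7.15% of the windows. It was also in the window of Abca1, and it was not in those of Nr1d2 and Cry2.

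Among FOXO targets, which AKT restrains, 1 of 18 rose and the median was 0.12. Fbxo32, a muscle-atrophy ubiquitin ligase gene, had 574, 320.1, 542, 339 and 1069 in the RAD001 arrays, against 170.2, 168, 278 and 251 in the placebo arrays. RAD001 replicate 5 was the highest, no arrays overlapped, and Fbxo32 rose by 1.28 ± 0.30, with both of its probe sets called when tested apart. The FOXO target genes Txnip (0.36 ± 0.19) and Cdkn1b (0.42 ± 0.20) did not pass. Of 19 immediate early and stress factors 1 was called, Myc. Junb (0.99 ± 0.41) was called without the 15 d arrays with many zeros (adjusted p = 0.00177). In the list of splicing factors and CLK kinases Clk1 alone rose of 21 and 0 fell, and Clk3 (0.44) was added without those arrays (adjusted p = 0.0204). Sod1, the cytosolic superoxide dismutase gene, rose by 0.67 ± 0.14 (1378 to 2036 under RAD001 and 976 to 1259 under placebo), as 1 of 17 genes of iron and antioxidant metabolism. Tfrc, the transferrin receptor gene of that list, was at -1.55 ± 0.75 and not called.

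Dim genes were among the widest rises. Ackr3, a scavenger receptor for the chemokine CXCL12, had 122, 205, 143.8, 36.7 and 81.8 in the RAD001 arrays, against 16, 23, 48.8 and 35.9 in the placebo arrays. Placebo replicate 1 lay at the floor, RAD001 replicate 4 fell within the placebo range, and Ackr3 rose by 1.84 ± 0.44 (adjusted p = 0.131 without placebo replicate 1). With a floor of 64 its change was 0.83 and not called. The nuclear receptor gene Nr2f1 had 59.1, 72.3, 75.6, 70.9 and 163 in the RAD001 arrays, against 16, 16, 40.2 and 63.7 in the placebo arrays, with 2 placebo arrays at the floor and RAD001 replicate 5 far above the rest. It rose by 1.53 ± 0.36, a size that depends on the floor, being 2.57 with a floor of 1 and 0.38, not called, with a floor of 64. Wif1, which encodes a secreted inhibitor of Wnt, had 146, 178, 126, 80.6 and 116 in the RAD001 arrays, against 43.9, 57.3, 63.3 and 57.3 in the placebo arrays and rose by 1.19 ± 0.30, without overlap (adjusted p = 0.0543 with a floor of 64).

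Brighter genes that rose included Man1a, a Golgi mannosidase of N-glycan trimming, with 1088, 1531, 1222, 538 and 1319 in the RAD001 arrays, against 361, 305, 812 and 586 in the placebo arrays. RAD001 replicate 4 lay below placebo replicates 3 and 4, and Man1a rose by 1.17 ± 0.26. Pim3, a survival kinase gene, had 1657, 1159.6, 1464, 1593 and 1287 in the RAD001 arrays, against 677, 735, 966 and 892 in the placebo arrays and rose by 0.81 ± 0.17 without overlap. Macrod1 (0.87 ± 0.20), Ttc7b (0.88 ± 0.23) and Cdc42se2 (0.94 ± 0.23) complete the 12 largest named rises, and placebo arrays reached up to the RAD001 arrays in Macrod1 and Cdc42se2. Cdc42se2 was at 0.39 with a floor of 64 (adjusted p = 0.274) and at 0.88 under common median scaling (0.0515), and was called in neither. Under common median scaling Ttc7b was not called either (adjusted p = 0.0544). Ttc7b is part of a complex that anchors a phosphatidylinositol kinase at the plasma membrane.

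The remaining large falls were of Fam3b, a secreted cytokine-like protein, with 191, 172, 238, 387 and 302 in the RAD001 arrays, against 456, 553, 688 and 375 in the placebo arrays. RAD001 replicate 4 was just above placebo replicate 4, and Fam3b fell by 1.03 ± 0.23. Adgre5, an adhesion receptor gene also known as CD97, fell by 0.72 ± 0.19 (199.6 to 368 under RAD001 and 429 to 586 under placebo). The widest falls among the called features were those of 2 probe sets without a single gene symbol, at -1.22 and -1.14.

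Cell type markers were read beside these groups. Of 17 luminal epithelial markers 1 fell, Krt8 (-0.64 ± 0.15, 1891 to 3058 under RAD001 and 2825 to 4737 under placebo), with a list median of -0.02 and summed intensities of 24170 to 33490 under RAD001 and 29320 to 36350 under placebo. Without the 15 d arrays with many zeros the keratin gene Krt19 was called lower as well (-0.62 ± 0.18, adjusted p = 0.0492). Of the 17 luminal values 9 were negative and 8 positive, the highest being that of Prom1 at 0.999, which was not called. Of 14 smooth muscle markers 1 rose and 0 fell, but all 14 had positive values, with a median of 0.52. Tagln, an actin-binding protein of smooth muscle, had 1778, 1859, 1691, 1872 and 2579 in the RAD001 arrays, against 946, 1183, 1499.7 and 1404 in the placebo arrays. The groups did not overlap, and Tagln rose by 0.64 ± 0.15 (adjusted p = 0.0508 with quantile scaling). The actin gene Acta2 was at 0.23 ± 0.13 and the smooth muscle myosin gene Myh11 at 0.84 ± 0.65, and neither passed.

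Summed intensities of the smooth muscle markers were 10700 to 15810 under RAD001, 7125 to 9861 under placebo and 14680 to 19430 in wild type placebo arrays. The part of smooth muscle content in the changes above was not tested. Of 16 fibroblast and matrix genes (median 0.12) and 8 basal epithelial genes (median 0.14) 0 were called. Of 3 endothelial, 12 macrophage, 6 lymphocyte, 2 erythrocyte, 3 adipocyte, 7 nerve and 4 skeletal muscle markers 0 were called. Summed intensities overlapped between the groups for each of these 7 cell types. Tie1 and Vwf of endothelium, Pparg of adipocytes and Myh4 of skeletal muscle lay at the floor in all 9 arrays. Of 9 seminal vesicle markers 7 were found on the array, and 0 of those were bright enough to be tested.

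**Figure D4:**
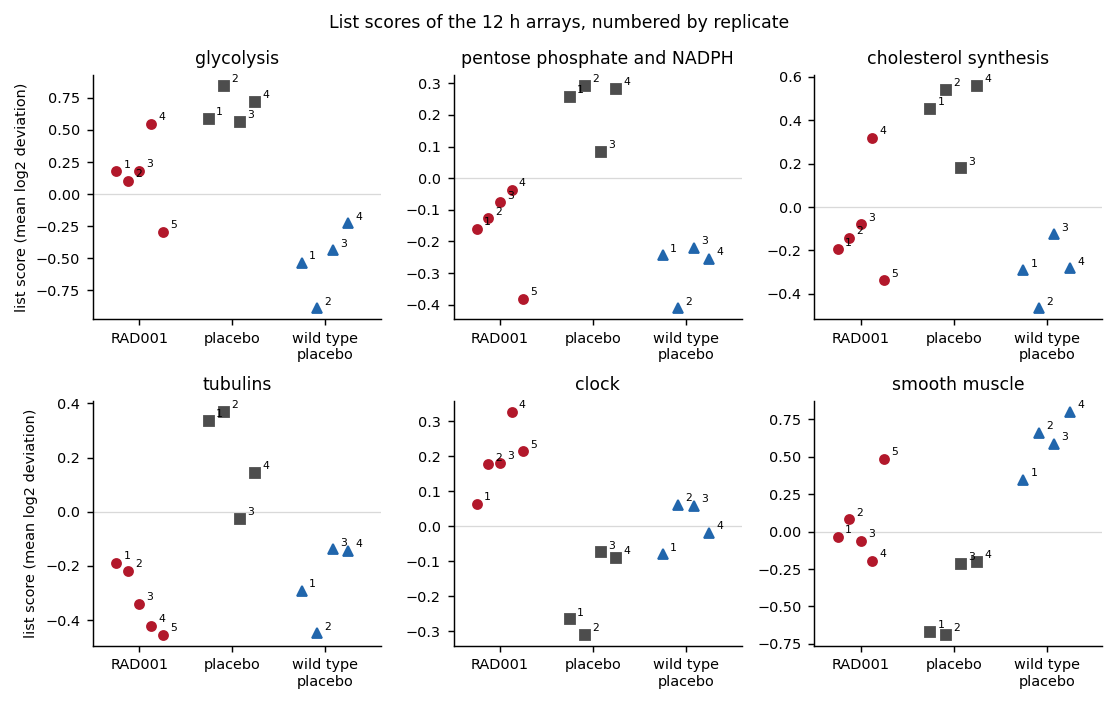
List scores (mean log2 deviation of the members from their mean over the 42 arrays) of 6 lists in each 12 h array, numbered by replicate. Red circles are RAD001, grey squares transgenic placebo and blue triangles wild type placebo arrays, and RAD001 replicate 4 lies nearest the placebo arrays in the panels of glycolysis, the pentose phosphate pathway and cholesterol synthesis.

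The comparisons at 48 h and 15 d use other arrays, so that the 12 h calls could be followed in them. Of the 62 features higher at 12 h, 21 (33.9%) were also called higher at 48 h, where 194 features (2.02%) were among 3.54% called in either direction, which makes 10.8% of the 48 h rises. Of the 80 lower at 12 h, 21 (26.2%) were called lower at 48 h, where 147 (1.53%) were, or 14.3% of the 48 h falls. No feature was called in opposite directions at these times. The 12 h rises had a median of 0.35 at 48 h and the 12 h falls a median of -0.20, against 0.00 over all features, and 58 of 62 and 71 of 80 kept their sign.

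At 15 d, 12 of the 62 rises (19.4%) were called higher, among 242 such features (2.51%), and 17 of the 80 falls (21.2%) were called lower, among 314 (3.26%), with 5.78% called in either direction. These make 4.96% of the 15 d rises and 5.41% of the 15 d falls. The medians of all 62 and all 80 at 15 d were 0.09 and -0.14, and 47 of 62 and 58 of 80 kept their sign. In the same direction at all of 12 h, 48 h and 15 d stood 13 features, of which 12 have a gene symbol. Lower throughout were Pfkl, Tpi1, Aldoa, Hk2, Bnip3, Fdps, Psat1 and Fam3b, and higher throughout were Fbxo32, Phf1, Eif3f and Srp68. Phf1 encodes a partner of the repressive Polycomb complex PRC2 and Srp68 a protein of the signal recognition particle. Called at 12 h and at neither later time were 82 features, 33 higher and 49 lower, which is a count of calls and no test that the times differ.

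The size of these effects differed between genes. Bnip3 was at -0.79 ± 0.18 at 12 h, -1.41 ± 0.18 at 48 h and -1.83 ± 0.15 at 15 d. Tpi1 was at -0.81 ± 0.15, -0.94 ± 0.15 and -1.03 ± 0.13 at these times, and Pfkl at -1.05 ± 0.19, -0.84 ± 0.19 and -0.78 ± 0.16. Abca1 stood at 1.07 ± 0.17 at 12 h and 1.07 ± 0.17 at 48 h, where it was called, and at 0.10 ± 0.14 at 15 d. Pcna and Tubb4b were lower at 12 h, with values of -0.42 ± 0.12 and -0.50 ± 0.17 at 48 h, and both were called higher at 15 d (0.33 ± 0.10 and 0.62 ± 0.14). Tubb5 was likewise called lower at 12 h and higher at 15 d (0.66 ± 0.08). The whole tubulin list had medians of -0.51 at 12 h, -0.08 at 48 h and 0.42 at 15 d. Of the 3 called clock genes 0 were called at 48 h or 15 d, and Nr1d2 was at 0.42 ± 0.19 and 0.17 ± 0.16.

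**Figure D5:**
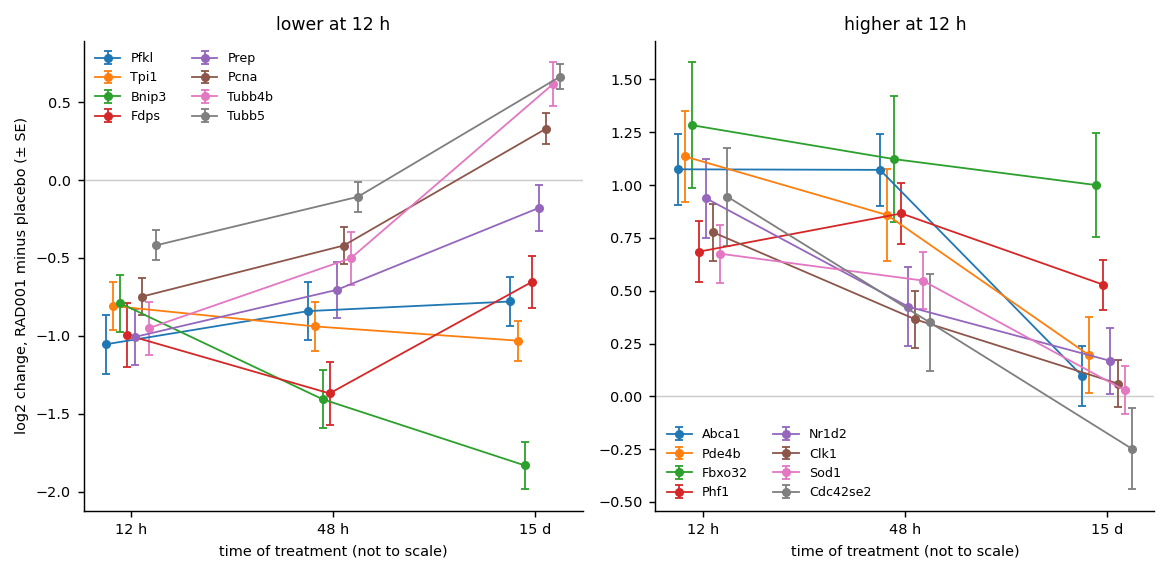
Log2 change, RAD001 minus placebo, with its SE from the limma fit at 12 h, 48 h and 15 d for 8 genes lower at 12 h (left) and 8 genes higher at 12 h (right). Each time uses its own arrays, with the times equally spaced, and Tubb4b, Tubb5 and Pcna lie below 0 at 12 h and above 0 at 15 d while Bnip3 lies lowest at 15 d.

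The difference between times was tested in the same fit. Between 12 h and 48 h it was called for 1 feature (0.0104%), a probe set without a single symbol (-0.95, adjusted p = 0.0394), with 766 at an unadjusted p under 0.05. The named genes with the smallest p were Lamp2, a lysosomal membrane protein, and Tm7sf2. Lamp2 was at 0.19 ± 0.09 at 12 h and -0.47 ± 0.09 at 48 h, and Tm7sf2 at 0.36 ± 0.15 and -0.73 ± 0.15. Neither difference passed. With 1 array left out, 0 to 3 features were called.

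Between 12 h and 15 d the difference was called for 74 features (0.769%), 20 of them among the 142 called at 12 h. The 15 d arrays fall into 2 sets along the first principal component of the table (26.1% of the variance), and each set holds both treatments. All 20 differences had the same direction against either set, with 4 past the threshold against the first, 12 against the second and 3 against both (Tubb5, Tubb4b and Pcna). The shared direction was largely fixed in advance, since both sets are part of the 15 d arrays by which the 20 were chosen. The first set holds only RAD001 replicates 1 and 2 and placebo replicates 1 and 2, so that passing or failing against it says little. Against all 15 d arrays the difference was -1.08 ± 0.12 for Tubb5, -1.57 ± 0.22 for Tubb4b and -1.08 ± 0.16 for Pcna. Against the first set alone it was -1.28, -1.58 and -0.94, and against the second, without the arrays with many zeros, it was -1.06, -1.56 and -1.26. For Abca1 (0.98 ± 0.22) and Tuba4a (-0.95 ± 0.17) it passed against the second set, but not against the first (adjusted p = 0.0989 and 0.0677). For Bnip3 (1.04 ± 0.24), Clk1, Ttc7b and Cdc42se2 it passed against neither set alone. The count for the 12 h to 15 d difference was 40 when RAD001 replicate 3 was left out. It was 24, 37 and 44 when placebo replicate 1, 2 or 3 was left out.

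The 12 h values were also set beside the difference between genotypes at 48 h, transgenic over wild type under placebo, which shares no array with them. Of 1176 features higher in transgenic glands at 48 h (12.2%), 20 fell (1.70%) and 2 rose (0.170%) with RAD001 at 12 h, against 0.831% and 0.644% of all features. Of 1388 lower in transgenic glands (14.4%), 33 rose (2.38%) and 11 fell (0.793%). Their median changes at 12 h were small, -0.03 and 0.07, against 0.02 in the 7063 features not called between genotypes. At 12 h the wild type placebo arrays had Pfkl intensities of 245 to 353, Tpi1 intensities of 678 to 831 and Bnip3 intensities of 310.1 to 375. The RAD001 arrays of transgenic glands lay between these and transgenic placebo in Pfkl and in 4 of 5 arrays of Tpi1. In wild type Abca1 was at 386 to 594, Nr1d2 at 217 to 386 and Tagln at 2440.5 to 2773.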

How the data were processed

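Ventral prostate RNA was extracted with Trizol, and biotin-labelled cRNA was made from 10 ug of total RNA, per the labels' protocols. The authors deposited 1 linear intensity per probe set and array (22626 probe sets). The sources used here do not say how these were scaled or with which software. Intensities under 16 were raised to 16 and log2 values taken. Probe sets under the 40th percentile of mean log2 intensity were left out, and the brightest probe set stood for a gene, which left 9627 features (8496 with 1 symbol). Of all probe sets 20380 have 1 symbol in the platform annotation, 691 several and 1555 none listed. limma 3.58.1 in R 4.3.3 fitted 1 mean per group over the 42 arrays of the larger table, with an intensity trend and Benjamini-Hochberg adjustment over all features. The code of the fit was run on simulated data with independent normal noise. Those data held no outlying arrays, so that run does not bear on how far the calls above depend on single arrays. Genes were named by size of change, by smallest p in a list, by holding without any 1 array, or by a fixed list. The members and lists were chosen with earlier results of these data known. Promoter windows are from RefSeq. The number of arrays limits the precision.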

Additional observations from a re-analysis of the deposited data

Results flagged for a closer look

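In 3 of 30 genes searched for this, 1 RAD001 array lay far from the other 4, by the ratio of its gap to the range of the group on the log2 scale. The 30 genes had the 12 largest named rises or falls, or are the 12 called whichever array was left out. Other named genes were not counted. Among those was Hspa4, not called, with RAD001 replicate 4 at 16 and the other RAD001 arrays at 143 to 177. Nr2f1 was at 163 in RAD001 replicate 5 with the nearest array at 75.6 (ratio 0.757). Ttc7b was at 340 in replicate 5 with the nearest at 264 (0.804), and Adgre5 at 200 in replicate 4 with the nearest at 314 (0.743). Chance gives such a gap in about 1 in 20 groups.

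The effect of RAD001 differed between times, by the test of the difference itself in limma. For the 12 h minus 48 h difference this was 1 probe set without a single gene symbol (-0.95, adjusted p = 0.0394). For the 12 h minus 15 d difference, chosen after seeing the data, it held for 7 of the genes with the largest changes. The difference was -1.08 for Pcna (adjusted p = 0.000142) and -1.57 for Tubb4b (0.00014), both lower at 12 h and higher at 15 d. It was 0.98 for Abca1 (0.0235), 0.72 for Clk1 (0.043), 1.33 for Ttc7b (0.0236) and 1.19 for Cdc42se2 (0.0474), which were higher at 12 h. For Bnip3, lower at both times, it was 1.04 (0.0257). Against either of the 2 sets of 15 d arrays alone, Clk1 (adjusted p = 0.572 and 0.149), Ttc7b (0.0873 and 0.0656), Cdc42se2 (0.69 and 0.149) and Bnip3 (0.273 and 0.17) did not pass, and Abca1 passed against 1 of them.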

How the results depend on the processing

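None of the 121 calls with a gene symbol reversed in sign under any alternative run. In a fit of the 9 compared arrays alone 83 of these 121 calls ended, and in a fit of the 13 arrays of 12 h 57 did. The balance of 62 rises and 80 falls turned to 513 and 344 with array weights. The count of 142 calls at 12 h was 857 with array weights, 253 without the 15 d arrays, 232 without the arrays with many zeros, 78 in a fit of the 9 arrays alone, and 31 to 175 when 1 array was left out, lowest without placebo replicate 2 and highest without RAD001 replicate 4. With other filters, floors, scalings, probe set rules or no intensity trend it was 114 to 199. Replicate numbers did not pair the arrays (correlations of same-numbered deviations from -0.01 to 0.03). With the replicate number as a block in the 9 arrays 1 feature was called, shared with none of the 142. The 1 call of the 12 h minus 48 h difference became 6 with the 60th percentile filter, 4 with a floor of 1, 3 with quantile scaling, 22 with array weights, 3 without the arrays with many zeros, 0 with all probe sets apart (limma), and 0 to 3 with 1 array left out. The 74 calls of the 12 h minus 15 d difference became 189 with array weights, 22 against the first set of 15 d arrays, 15 of them shared, and 24 to 90 with 1 array left out. Of the 121 named calls 22 held under every alternative other than leaving out an array and the block, and 11 under those that leave out an array as well. The causes were not tested. Signal near background limits dim genes such as Ackr3 and Nr2f1, where some arrays lay at the floor.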
